A study of Mus musculus with 6 samples.

Results

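The genes of 9 core adipogenic transcription factors were followed in 3T3-L1, a line of mouse fibroblast-like cells that hormones convert to fat cells, with and without an extract of Tsuruazuki ("Tsuru"). The genes are Pparg, Cebpa, Cebpb, Cebpd, Rxra, Nr1h3, Klf15, Stat5a and Stat5b. They were chosen by name, as the rows of the authors' deposited table that carry exactly 1 of these symbols. All 9 were found, each with 1 transcript cluster (the array's gene-level probe set), among 21154 genes with a symbol of their own and 22206 clusters in all.

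The series holds 6 Clariom S arrays of total RNA, 3 from cells given Tsuru for 9 days and 3 from cells without it. The treatment protocol takes cells past confluence, induces them with dexamethasone, insulin and IBMX, the extract being present or absent, moves them to insulin medium at day 3 and keeps them to day 9. The control titles say only that the cells were maintained in medium, so it is not certain that the arrayed controls were induced, and a difference between the groups is that of the extract alone only if they were. The fat cell markers Fabp4 and Adipoq had control means of 17.63 and 16.15 on the log2 scale, and 17.80 and 16.62 with Tsuru. The preadipocyte marker Dlk1 read 17.35 and 17.37. Whether the controls were induced was not tested. The protocol names 1000-fold and 100-fold dilutions of a 100 mg/ml extract, but the dilution used for the arrays is not named in the labels. Separate cultures are not stated for the 3 samples of a group, so p-values measure only how these samples vary, and that variation may be technical.

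Fat cell formation runs as a cascade of transcription factors. Dexamethasone and IBMX switch on C/EBP delta and C/EBP beta, which act with STAT5 proteins downstream of growth hormone and with other early factors to start PPAR gamma and C/EBP alpha. These last keep each other on and, with RXR alpha as the partner of PPAR gamma on DNA, turn on the genes of lipid storage. The comparison asks whether the transcripts of these factors differed after 9 days with the extract. At day 9 the early wave is normally over and the late factors are held on.

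No difference between the groups in the 9 factors passed the test. In limma's moderated test adjusted over all clusters, 0 of the 9 reached an adjusted p under 0.05, and their adjusted p ran from 0.636 to 0.965. The same was true of the whole array, where 0.0% of clusters were called this way. At the threshold of the series' methods, an unadjusted p under 0.05 with a linear fold above 1.1, 0 of the 9 passed, against a background of 11.1% of all clusters. Mean signals were higher with Tsuru for 7 factors and lower for 2, and 50.6% of all clusters had a higher mean. The 95% interval of every factor's fold lay between 0.675 and 1.73. Each interval holds for its gene by itself, for the values as deposited and for the variation among these samples. That of Klf15 says little about its transcript, because its level could not be told from that of the negative control sets. In bulk RNA, fewer cells of a type and less RNA per cell cannot be told apart.

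**Figure D1:**
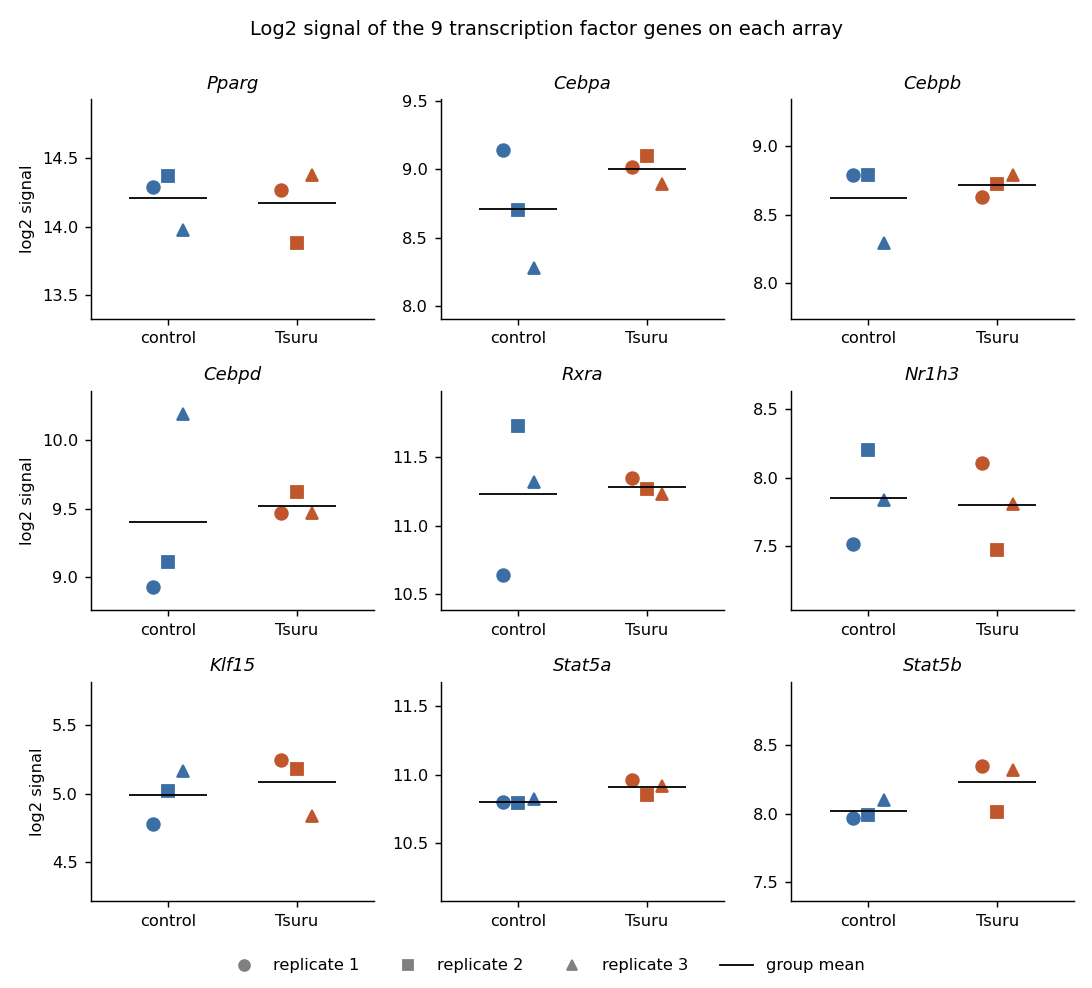
Log2 signal (vertical axes, each spanning the same width) of the 9 factors on the 3 control and 3 Tsuru arrays, with marker shape for the replicate number and a line at each group mean. The groups overlap for every factor except Stat5a, and the controls of Cebpa, Cebpd and Rxra spread widely while the Tsuru arrays lie close together.

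A start of Pparg is shown because C/EBP proteins are known to act on this gene. RefSeq (GRCm38.p6) lists 3 start windows for Pparg, and the most downstream is the start of the transcript enriched in fat cells. Its 250 bases upstream of the start, at chr6:115421816-115422065 on the plus strand, are shown with matches to TTGCNNAA, the core of a C/EBP site, in capitals on either strand.
Pparg: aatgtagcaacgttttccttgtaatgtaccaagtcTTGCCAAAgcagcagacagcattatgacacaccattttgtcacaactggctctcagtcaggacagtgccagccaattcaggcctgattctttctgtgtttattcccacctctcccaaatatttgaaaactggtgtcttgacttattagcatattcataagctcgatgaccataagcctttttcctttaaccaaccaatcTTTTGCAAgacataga
The matches begin 215 and 16 bases before the start. Such a match stands in 9.56% of 32851 windows of this length, and of the 14 windows found for 8 of the factors only this one held any, so the factors' windows did not hold it more often than windows in general. The array has a single Pparg cluster, so the transcripts from the 3 starts were measured together.

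Cebpb, whose protein carries the hormonal signal to the later factors, read 8.63, 8.72 and 8.79 on the log2 scale on Tsuru arrays 1 to 3, and 8.79, 8.79 and 8.29 on control arrays 1 to 3. The Tsuru values all lay inside the range of the controls, which was set by control 3. The difference was 0.09 ± 0.19 (SE), with adjusted p = 0.886. In the authors' deposited table the sign is the other way, with a fold of -1.04 (a minus marks a lower signal with Tsuru).

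Cebpd, the other early factor and a known target of glucocorticoids, read 9.47, 9.62 and 9.47 with Tsuru and 8.93, 9.11 and 10.19 without. The Tsuru arrays were nearly alike, and the controls lay on both sides of them. The difference of 0.11 ± 0.29 (SE) had adjusted p = 0.918. Control 3 decided it: without that array the difference was 0.50, with an unadjusted p of 0.0197 and an adjusted p of 0.226, and without control 1 it was -0.13. The median deviation of the 12 glucocorticoid response genes was 0.13 on control 3 and -0.32 on control 1, and their part in the spread of Cebpd was not tested.

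Pparg, the nuclear receptor required for fat cell formation, was among the bright genes of the array, brighter than 97.5% of clusters. It read 14.27, 13.88 and 14.38 with Tsuru and 14.29, 14.37 and 13.98 without. Each group had 1 low array, and the groups covered nearly the same range. The means were 14.18 ± 0.26 (SD, n = 3) and 14.21 ± 0.20, and the difference of -0.03 ± 0.19 (SE) had a 95% interval from -0.47 to 0.40. On the linear scale that is a fold of 0.977, between 0.723 and 1.32.

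Cebpa, which maintains Pparg and insulin sensitivity in the mature cell, had the widest difference of the 9. It read 9.02, 9.10 and 8.89 with Tsuru and 9.14, 8.70 and 8.28 without. Controls 2 and 3 lay below every Tsuru array and control 1 above them all. The means were 9.00 ± 0.10 (SD, n = 3) and 8.71 ± 0.43, a difference of 0.30 ± 0.22 (SE) with adjusted p = 0.636. Without control 1 the difference was 0.51 with an unadjusted p of 0.028 and an adjusted p of 0.53, and without control 3 it was 0.08.

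**Figure D2:**
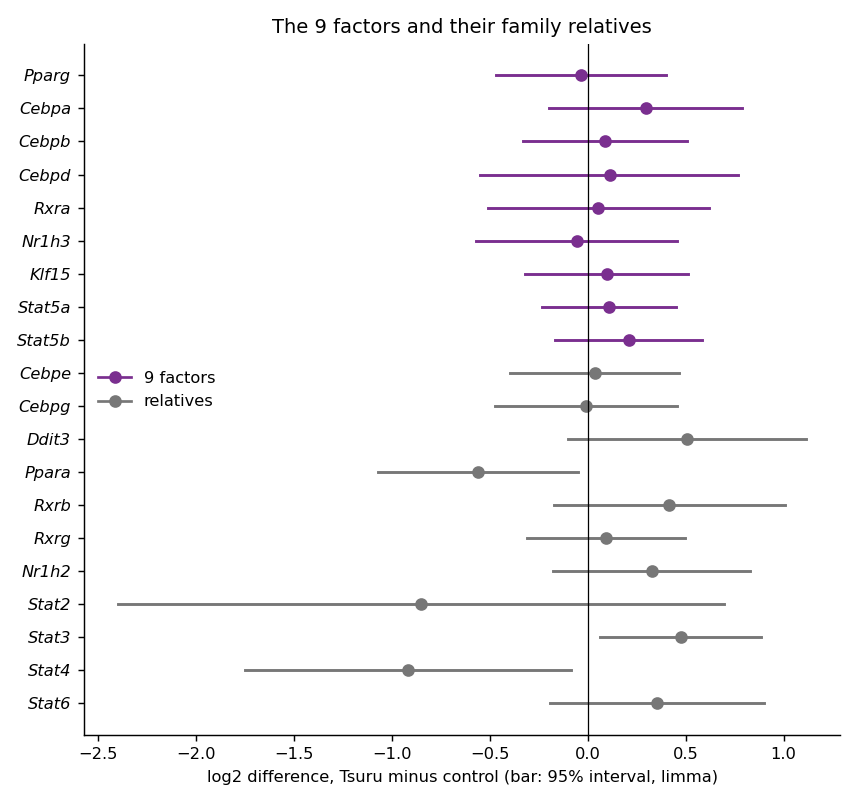
Log2 difference, Tsuru minus control, with its 95% interval from limma for the 9 factors (purple) and 11 relatives of the same families (gray). All 9 purple intervals cross 0, and the widest bar belongs to Stat2.

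The partners of Pparg were measured as well. Rxra encodes RXR alpha, which pairs with PPAR gamma and with LXR alpha. It read 11.35, 11.27 and 11.23 with Tsuru and 10.64, 11.73 and 11.32 without. The Tsuru arrays lay close together inside the range of the controls, with SDs of 0.06 and 0.55. The difference was 0.06 ± 0.25 (SE), and it went to -0.24 without control 1 and to 0.30 without control 2.

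Nr1h3 encodes LXR alpha, a sterol receptor that is induced with PPAR gamma in fat cells. It read 8.11, 7.47 and 7.81 with Tsuru and 7.52, 8.20 and 7.84 without. Both groups spread evenly over the same range. The difference was -0.06 ± 0.23 (SE), with adjusted p = 0.949, and it was positive, at 0.11 and 0.12, without Tsuru 2 or control 2. Klf15, a glucocorticoid-induced factor that supports Slc2a4 and Pparg expression, read 5.25, 5.18 and 4.84 with Tsuru and 4.78, 5.02 and 5.17 without. Its mean was brighter than only 38.0% of the 5222 negative control sets, so its level cannot be told from that of the negative sets. The other 8 factors lay above the median of those sets, 5.56. Nr1h3, Stat5b, Cebpb and Cebpa were brighter than 86.5%, 89.2%, 92.3% and 93.2% of the sets. Cebpd, Rxra, Stat5a and Pparg were brighter than 95.4% or more.

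STAT5A and STAT5B are closely related proteins that relay growth hormone and prolactin signals. Stat5a was the factor whose groups did not overlap, a feature shared by 16.8% of all clusters, 9.06% with Tsuru the higher. It read 10.96, 10.85 and 10.92 with Tsuru and 10.80, 10.79 and 10.82 without. All 3 Tsuru arrays lay above all 3 controls, by a small step: the means were 10.91 ± 0.06 (SD, n = 3) and 10.80 ± 0.02. The difference of 0.11 ± 0.15 (SE), a fold of 1.08, had adjusted p = 0.82. An exact two-sided permutation test over the arrays gave p = 0.1, the smallest that 3 against 3 can reach. The moderated SE is wider than the arrays' own spread because limma draws each variance toward that of all clusters, and only 0.20% of clusters had a smaller SE. Without that step the SE was 0.03, the unadjusted p 0.028 and the adjusted p over all clusters 0.562, and the fold stayed under the 1.1 of the methods. With quantile or cyclic loess normalization the difference was -0.01 or -0.02.

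Stat5b read 8.35, 8.01 and 8.32 with Tsuru and 7.97, 7.99 and 8.10 without. Tsuru arrays 1 and 3 lay above every control, and Tsuru 2 lay among them. The difference of 0.21 ± 0.17 (SE) had adjusted p = 0.665 and a 95% interval from -0.17 to 0.59. It was positive in each of the 15 alternatives run, as was that of Cebpa, and each of the other 7 factors had the opposite sign in at least 1 alternative. Some of these alternatives could not turn a sign: other variance models, a block for the replicate number and the filter on signal leave the difference as it is. All of them reuse the same arrays, so the count is a description and not a test.

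RefSeq lists 2 start windows for each STAT5 gene. The pair shown, 1 window of each, was picked because it was seen to be alike around a motif match. In these windows, from RefSeq (GRCm38.p6), capitals mark matches to AGGTCA, the core motif of many nuclear receptors, on either strand. The Stat5a window lies at chr11:100860234-100860483 on the plus strand, and the Stat5b window at chr11:100822571-100822820 on the minus strand, each reading toward its gene.
Stat5a: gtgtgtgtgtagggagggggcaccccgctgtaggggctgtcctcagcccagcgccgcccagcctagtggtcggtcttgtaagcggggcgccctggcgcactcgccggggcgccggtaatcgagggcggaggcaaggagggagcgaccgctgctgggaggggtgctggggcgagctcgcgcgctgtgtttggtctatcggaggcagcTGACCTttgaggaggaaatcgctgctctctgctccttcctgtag
Stat5b: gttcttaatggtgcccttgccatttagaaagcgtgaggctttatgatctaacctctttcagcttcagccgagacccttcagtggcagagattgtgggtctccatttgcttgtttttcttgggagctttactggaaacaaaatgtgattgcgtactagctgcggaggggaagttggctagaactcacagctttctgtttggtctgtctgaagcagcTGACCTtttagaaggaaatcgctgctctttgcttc
Over the match and 20 bases on each side, 41 of 46 bases are the same. The other Stat5a window also holds a match, and the other Stat5b window none. AGGTCA stands in 14.0% of all windows and in 6 of the factors' 14 windows, which belong to 4 of the 8 factors found. The STAT motif TTCNNNGAA, in 7.02% of all windows, was in none of the factors' 14 windows. The DR1 and DR4 elements, which are spaced repeats of AGGTCA bound by PPAR gamma and LXR with RXR, and the palindrome of the glucocorticoid receptor were also searched on both strands and were in none. They stood in only 0.0335%, 0.0152% and 0.00913% of all windows. Absence from 14 windows was thus near certain beforehand and says nothing about the factors. A match is only a run of letters in this window, and its absence only that these letters are not there.

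The 9 factors were set against genes of like brightness. Their median difference was 0.10, against 0.00 over all clusters. In the deposited values, however, bright clusters as a whole lay higher with Tsuru: the 6486 clusters with a mean log2 signal of at least 8 had a median difference of 0.12, with 67.7% of them positive, and those under 6 had a median of -0.06. Of the 9 factors, 7 were that bright, so their median sits at the level of bright clusters in general. After quantile or cyclic loess normalization the median of the factors was -0.03 or -0.02, and that of bright clusters 0.02 or 0.00. Subtracting array medians moved both up, to 0.18 for the factors and 0.20 for bright clusters.

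**Figure D3:**
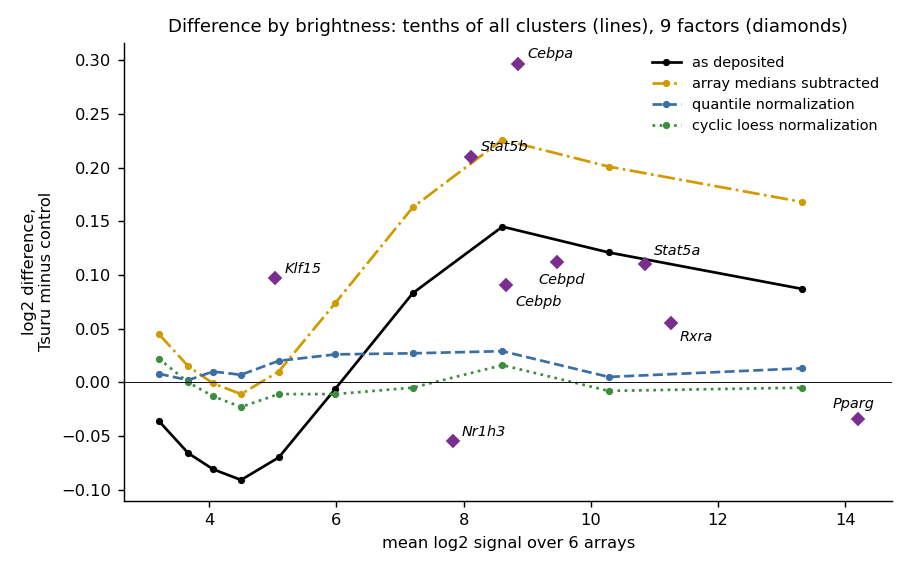
Log2 difference, Tsuru minus control, against the mean log2 signal over the 6 arrays. Lines join the medians of 10 equal groups of clusters by brightness under 4 scalings, and diamonds are the 9 factors as deposited. The black line lies below 0 at dim signals and reaches 0.15 near a signal of 8.6, and Cebpa, Stat5b and Klf15 lie above it.

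The control arrays differed more among themselves than the Tsuru arrays did for Cebpa, Cebpb, Cebpd and Rxra, and slightly more for Nr1h3. For Pparg, Klf15, Stat5a and Stat5b the Tsuru arrays differed more. Control 1 stood apart from the other arrays, with a mean correlation of 0.987 with them, against 0.991 to 0.992 for the others. It held the lowest reading of 4 factors and the highest of 2. Control 3 held the lowest reading of Cebpa and Cebpb and the highest of Cebpd. Array medians ran from 5.43 to 5.59, and the spike-in transcript dap, added before labelling, read 8.33 and 8.32 on controls 1 and 2 and 6.84 to 7.31 on the other arrays. The part of these differences in the results was not tested.

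**Figure D4:**
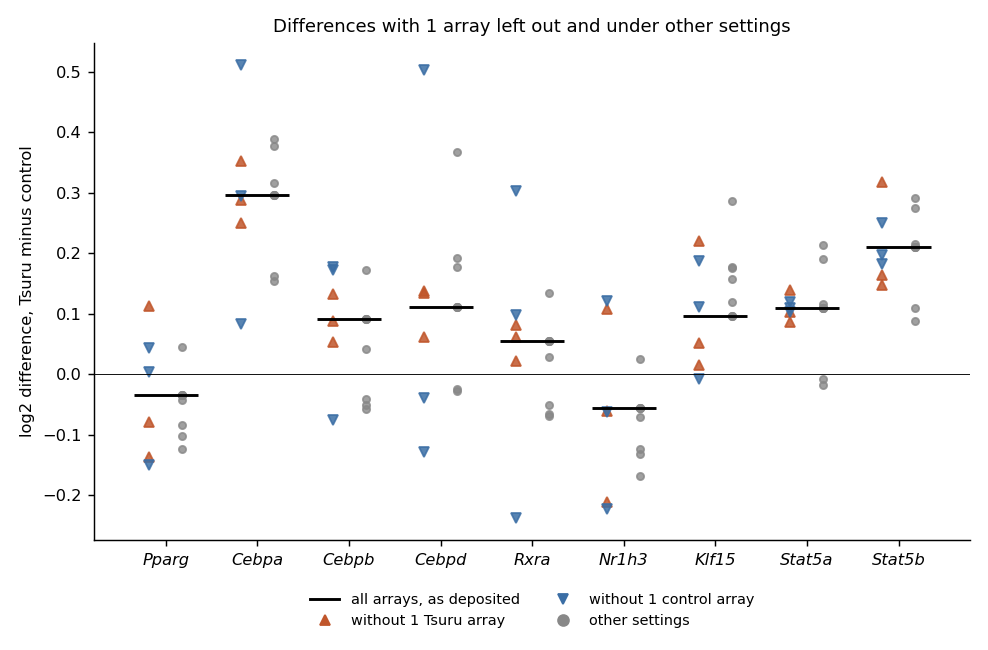
Log2 difference of each factor with all arrays as deposited (black line), with 1 array left out (triangles) and under the other settings, the authors' table included (gray). Cebpa runs from 0.08 to 0.51 and Cebpd from -0.13 to 0.50, while Stat5b stays above 0 throughout.

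Genes of the same families were read beside the factors. Of 11 measured relatives, 1 passed the methods' threshold higher and 2 lower, where 5.75% and 5.38% of all clusters did, and 0 passed adjustment; without control 1 none passed either threshold. Stat3, which relays cytokine signals of the interleukin-6 type, read 13.02, 12.94 and 12.78 with Tsuru and 12.24, 12.34 and 12.73 without. All Tsuru arrays lay above all controls, and the difference was 0.48 ± 0.18 (SE), with an unadjusted p of 0.0273 and adjusted p = 0.41. Ppara, the fatty acid receptor of liver and brown fat, differed by -0.56 ± 0.23 with adjusted p = 0.415, or by -0.34 without Tsuru 1, and Stat4 by -0.92 ± 0.37 with adjusted p = 0.414, or by -0.42 without control 1. Both lay in both groups under 5.56, the median of the negative control sets.

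Stat2, which carries interferon signals and is itself induced by interferon, read 8.72, 9.64 and 10.34 with Tsuru and 12.27, 9.13 and 9.85 without. Control 1 lay above every other array, and the remaining controls lay within the range of the Tsuru arrays. The difference of -0.85 ± 0.69 (SE), with adjusted p = 0.67, became 0.08 without control 1. The 10 interferon response genes had a median deviation of 2.81 on that array, against -1.07 and 0.04 on the other controls and -1.41 to 0.31 on the Tsuru arrays. Stat5a and Stat5b were not high there: at 10.80 and 7.97 they read among their lowest values. Ddit3, whose protein blocks C/EBP partners, differed by 0.51 ± 0.27 with adjusted p = 0.515, and Rxrb, Nr1h2 and Stat6 had positive differences between 0.33 and 0.42, none past the threshold.

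Genes that act before or beside the factors were counted in the same way. This list, like the other lists here, was chosen with earlier results of these data known. A count set beside the share of all clusters is therefore a description and not a test. Of 17 upstream inducers measured, 5 passed the methods' threshold higher and 0 lower, with a median of 0.19, where 5.75% of all clusters passed higher and 5.38% lower. Calls among brighter clusters were mostly higher. With a mean log2 signal of at least 6, 992 clusters passed higher and 317 lower, where 1277 and 1195 did over all clusters. The 5.75% is thus below the share among such brighter clusters, and the counts of this and the following lists stand against that. After quantile or cyclic loess normalization 1 of the upstream inducers passed, as without Tsuru 1. Insr, which encodes the insulin receptor, differed by 0.54 ± 0.17 (SE), the early B cell factor gene Ebf1, which activates Pparg and Cebpa, by 0.44 ± 0.18, Zfp423, which commits cells to the fat lineage, by 0.48 ± 0.19, and Klf4, an activator of Cebpb, by 0.44 ± 0.18. Their adjusted p ran from 0.352 to 0.414. Srebf1 was not used here, because its cluster carries several symbols.

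Of 18 coactivators and chromatin cofactors, 5 passed higher and 0 lower, against 5.75% and 5.38% of all clusters, and 5 passed higher under each of the 3 other scalings as well. Ncoa1, a coactivator that binds nuclear receptors, read 10.92, 10.86 and 10.91 with Tsuru and 10.37, 10.52 and 10.06 without. The groups did not overlap, and the difference was 0.58 ± 0.18 (SE) with adjusted p = 0.352. Ppargc1b, a coactivator of mitochondrial genes, differed by 0.53 ± 0.16, Lpin1, a phosphatidate phosphatase that also acts with PPAR gamma, by 0.49 ± 0.16, and Nrip1, a corepressor that restrains energy use in fat cells, by 0.47 ± 0.16. The median over the list was 0.10, at the level of bright clusters.

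Repressors of fat cell formation had 1 of 16 members past the threshold, higher, against 5.75% of all clusters, and a median of 0.15. That member was Hes1, a Notch target, at 0.46 ± 0.20 (SE) with adjusted p = 0.443, and both its group means lay under the median of the negative control sets. Foxo1, which represses Pparg, differed by 0.40 ± 0.22, Tcf7l2, a Wnt effector, by 0.43 ± 0.25, and Klf2, which represses Pparg, by 0.30 ± 0.21. None of these 3 passed, and both group means of Klf2 lay under the median of the negative control sets. The count ran from 0 to 3 with 1 array left out, and the median was 0.06 or 0.04 after quantile or cyclic loess normalization.

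The genes that the factors switch on were measured too. Their list was also chosen with earlier results of these data known, so its counts only describe it. Of 24 targets of PPAR gamma and C/EBP alpha, 6 passed the methods' threshold higher and 0 lower, 0 passed adjustment, and 5.75% of all clusters passed higher. The count higher was 10 with array medians subtracted, 5 after quantile and 4 after cyclic loess normalization. The median was 0.25, or 0.18 and 0.17 after quantile and cyclic loess normalization. Plin4, a lipid droplet coat gene, read 12.66, 12.51 and 12.48 with Tsuru and 11.55, 11.69 and 11.62 without. Its groups were separated by more than their whole ranges, and the difference was 0.93 ± 0.16 (SE) with adjusted p = 0.259. Plin1, another coat gene, differed by 0.90 ± 0.19, Cfd, which encodes adipsin, by 1.09 ± 0.26, and Fabp5, a fatty acid binding protein gene, by 0.56 ± 0.16. Fabp4, a classical target, differed by only 0.17 ± 0.19, and Adipoq, which encodes adiponectin, by 0.47 ± 0.23, neither past the threshold. Adipoq did pass it in the authors' deposited table, with p = 0.0488 and a fold of 1.67, and here with array medians subtracted, array weights or a variance trend, with unadjusted p from 0.0277 to 0.0424. Whether targets and factors differed from each other was not tested.

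**Figure D5:**
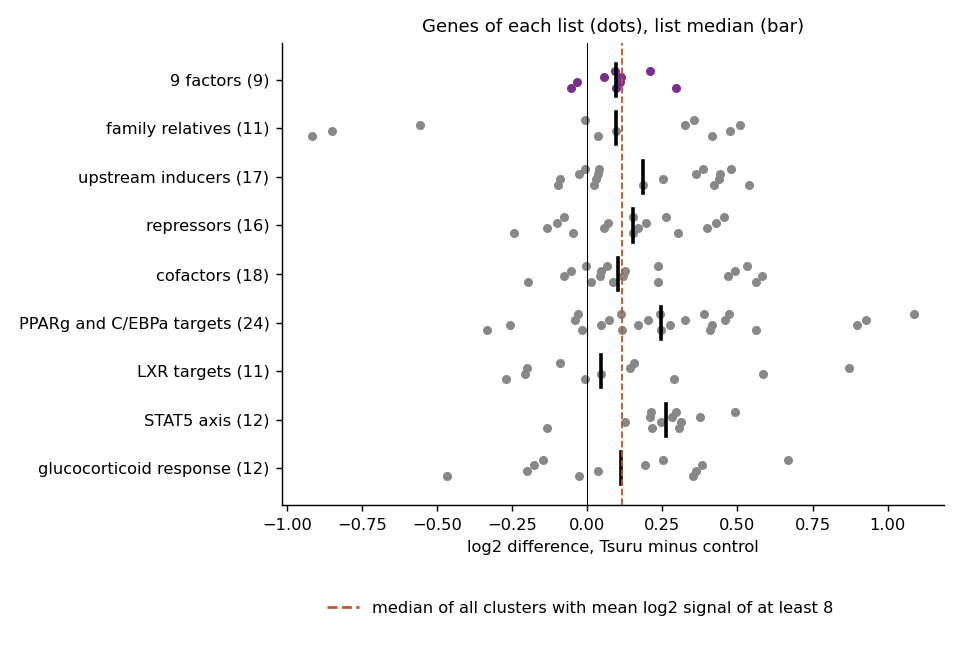
Log2 difference, Tsuru minus control, of each measured gene (dots) in 9 lists, with the number of genes in brackets and a black bar at each median. The dashed line marks 0.12, the median of all bright clusters. The 9 factors lie between -0.06 and 0.30, and the PPAR gamma and C/EBP alpha targets reach 1.09.

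LXR targets, the genes downstream of Nr1h3, had 1 of 11 members past the threshold, higher, against 5.75% of all clusters, and a median of 0.05, or -0.01 and -0.05 after quantile and cyclic loess normalization. That member, the phospholipid transfer protein gene Pltp, read 9.33, 9.35 and 9.40 with Tsuru and 7.68, 8.78 and 9.01 without. Every control was lower, control 1 most, and the difference of 0.87 ± 0.30 (SE) was 0.47 without control 1. The cholesterol exporter gene Abca1 differed by 0.58 ± 0.34, the fatty acid synthase gene Fasn by 0.29 ± 0.18 and Abcg5 by -0.20 ± 0.17, none past the threshold. Both group means of Abcg5 lay under the median of the negative control sets.

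The STAT5 axis holds genes of growth hormone and prolactin signaling. Of its 12 genes, 11 had a higher mean with Tsuru, where 50.6% of all clusters and 67.7% of bright ones did. The threshold was passed by 2 higher and 0 lower, against 5.75% and 5.38% of all clusters, and the median was 0.26, or 0.25 and 0.22 after quantile and cyclic loess normalization. Cish, a feedback inhibitor induced by STAT5, read 5.10, 5.24 and 5.22 with Tsuru and 4.33, 4.71 and 5.04 without. All controls were lower, the difference was 0.49 ± 0.20 (SE) with adjusted p = 0.415, and it was 0.31 without control 1. Both group means lay under the median of the negative control sets. Igf1, a growth hormone target, read 14.24, 13.99 and 13.99 with Tsuru and 13.56, 13.81 and 13.71 without, and the difference was 0.38 ± 0.17 with adjusted p = 0.445. The feedback inhibitor gene Socs2 differed by 0.28 ± 0.16 and the prolactin receptor gene Prlr by 0.29 ± 0.16, neither past the threshold. Prlr too lay in both groups under the median of the negative control sets, and 9 of the 12 genes lay above it. Without any 1 of the 6 arrays, 0 or 1 of the 12 genes passed.

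Glucocorticoid response genes had 2 of 12 members past the threshold higher and 1 lower, against 5.75% and 5.38% of all clusters, with a median of 0.11, or -0.01 without control 1. The metallothionein genes Mt2 and Mt1 differed by 0.67 ± 0.19 (SE) and 0.38 ± 0.16, Zbtb16 by -0.47 ± 0.16, and Hsd11b1, which regenerates active glucocorticoid, by 0.35 ± 0.23 without passing. Adjusted p for the first 3 ran from 0.352 to 0.428.

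Markers of cell state were read beside the factors. Preadipocyte markers had a median of 0.01 over 8 genes, with Dlk1 at 0.02 ± 0.19 (SE). The threshold was passed by 1 of them, Sox9, at 0.49 ± 0.21, where 5.75% of all clusters passed higher and 5.38% lower. Macrophage and leukocyte markers were dim, with a mean level of 4.56 to 4.66 on the Tsuru arrays and 4.80 to 5.13 on the controls, and 4 of the 10 lay above the median of the negative control sets. The median difference of the 10 was -0.14, with 3 higher and 7 lower. Mrc1 differed by -1.15 ± 0.43 and Lyz2 by -1.29 ± 0.52, both past the threshold lower, which 5.38% of all clusters passed. Without control 1 neither passed. The mean of Mrc1 over the arrays lay under the median of the negative control sets, and Cd68 differed by 0.33 ± 0.26 without passing. Muscle, bone and cartilage markers had a median of -0.04 over 8 genes, with 2 of 8 above the median of the negative control sets. The threshold was passed by 1 of the 8, Myog, at -0.64 ± 0.17, against 5.38% of all clusters lower. The mean of Myog over the arrays lay under the median of the negative control sets. The part of these markers in the levels of the 9 factors was not tested.

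In the authors' deposited table the 9 factors were likewise not called, with p between 0.26 and 0.878 and FDR p between 0.662 and 0.964, where 11.9% of all clusters passed the methods' threshold. Its folds for Cebpa, Cebpd, Klf15, Stat5a and Stat5b were 1.31, 1.29, 1.22, 1.16 and 1.21. For Rxra the fold was 1.02, and for Pparg, Cebpb and Nr1h3 it was -1.03, -1.04 and -1.05. For 2 factors, Stat5a and Stat5b, its Tsuru average lay outside the range of the 3 Tsuru arrays in the value table, and for Klf15 and Stat5b its control average lay outside that of the controls. The 2 deposited tables thus do not hold the same values, and why was not tested.

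Among bright named genes, the profiles over the 6 arrays most like that of Pparg were those of Ammecr1, Nlk and Zfp365, with Pearson correlations of 0.994, 0.978 and 0.953. For Cebpa they were Atl2, Atxn10 and Cd302, at 0.983, 0.983 and 0.979. These are descriptions over 6 arrays that share their scaling, picked as the highest of 5977 clusters, of which 15 passed 0.9 for Pparg and 47 for Cebpa.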

How the data were processed

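Expression was measured in 6 samples of 3T3-L1 cells on Clariom S mouse arrays, 3 Tsuru and 3 control, grouped and numbered by their titles. The deposited values are log2 signals, which the authors computed by SST-RMA in Transcriptome Analysis Console 4.0.2, per the series design text. The authors' deposited table gives p-values, FDR p-values and a signed linear fold, which the design text attributes to one-way ANOVA and an empirical Bayes step. No build is named for the clusters (not given in the sources used here).

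Control sets (6640 of 28846) were left out of the tests. The log2 values of 22206 clusters entered limma (version 3.58.1, R version 4.3.3; lmFit, then eBayes without trend), with no filter and Benjamini-Hochberg adjustment over all of them; errors marked SE are moderated. The median SE was 0.195, and the number of arrays limits the precision. On simulated data for this comparison over 22206 clusters, 4% of genes changed by 0.5 on the log2 scale were recovered at an adjusted p under 0.05, 36% of those changed by 1 and 100% of those changed by 2, with 8 false calls. The simulation planted 50 changes each of 0.5, 1, 2 and 3 together, and the larger ones ease the adjustment for the smaller. Its noise was independent, with no array that stands apart as control 1 does. These shares therefore need not hold for the deposited values. Other scalings, a filter, other variance models, array weights and leaving out each array were alternatives. Of 172 list entries 166 were matched to a cluster of 1 symbol, 1 through an older symbol in RefSeq; a gene with several clusters took the brightest. Promoter windows on chromosomes other than 18 were searched over 250 bases upstream. 1 gene of the lists is not reported here. The members and lists were chosen with earlier results of these data known. The text names the 9 factors, their relatives, the 4 genes of each list with the smallest p, the markers Dlk1, Fabp4, Adipoq and Plin1, and for Pparg and Cebpa the 3 bright named genes with the highest correlation.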

Additional observations from a re-analysis of the deposited data

How the results depend on the processing

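The adjusted call was absent for the 9 factors under every setting run. Over all clusters the count at an adjusted p under 0.05 was 0 with all arrays and from 0 to 25 with 1 array left out, 25 without control replicate 3. One-way ANOVA without empirical Bayes gave 0 as well. At the methods' threshold 2472 clusters passed (51.7% of them higher), from 1659 to 3616 with 1 array left out, 1309 with only clusters of a mean log2 signal of at least 6 (75.8% higher), and 72.6% of calls were higher with array medians subtracted. The count of factors past that threshold was 0, and from 0 to 1 with 1 array left out: Cebpa without control replicate 1 and Cebpd without control replicate 3. The median of the factors, 0.097, ran from 0.004 to 0.121 with 1 array left out, and was 0.177 with array medians subtracted, -0.027 after quantile and -0.024 after cyclic loess normalization. Same-numbered arrays of the groups correlated in their deviations at 0.002, 0.006 and 0.186, and differently numbered ones at -0.132 to 0.12. So few arrays cannot decide whether the numbers mark pairs, and the main test did not take them as pairs. With the replicate block 2775 clusters and 0 factors passed, and Adipoq passed at an unadjusted p of 0.023.

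Signs turned as follows, and the cause was not tested. With array medians subtracted Pparg was at 0.046, Nr1h3 at 0.026 and Cebpg at 0.072. With array weights Rxra was at -0.065. After cyclic loess normalization Cebpb was at -0.040, Cebpd at -0.024, Rxra at -0.069, Stat5a at -0.017 and Dlk1 at -0.024. After quantile normalization Cebpb was at -0.050, Cebpd at -0.027, Rxra at -0.051, Stat5a at -0.007 and Bglap at 0.012. In the authors' deposited table Cebpb was at -0.057. With 1 array left out, Pparg from -0.149 to 0.113, Cebpb from -0.076 to 0.177, Cebpd from -0.129 to 0.503, Rxra from -0.237 to 0.304, Nr1h3 from -0.223 to 0.121 and Klf15 from -0.008 to 0.221 crossed 0, and so did Cebpe from -0.072 to 0.219, Cebpg from -0.157 to 0.154, Rxrg from -0.018 to 0.197, Stat2 from -1.495 to 0.078, Runx2 from -0.021 to 0.478, Dlk1 from -0.105 to 0.160, Pi16 from -0.065 to 0.271, Ly6a from -0.404 to 0.009 and Ifit3 from -2.982 to 0.027. Klf15 has no value under the filter on mean signal.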
